A study of Mus musculus with 24 samples.

Results

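Htr2c, the X-linked gene of a serotonin receptor, carries several miRs inside its transcribed region, and 3 mature forms of them were measured in the hippocampus of neonatal mice: miR-448, miR-764-3p and miR-764-5p. They were selected by name as the mature probe sets, without hairpin or star sets, of miR-448, miR-764-3p, miR-764-5p, miR-1264, miR-1298, miR-1911 and miR-1912. Of these 7 names 3 had a mature set in the miR table, which held 601 mature sets among 1412 mouse probe sets. The other 4 were not analysed here. All 3 had been seen to differ between the MS5 group and controls by over 1.5-fold (unadjusted p under 0.05), and were put forward on those measured values. Their miR levels are therefore described with errors and without a test.

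C57BL/6 pups labelled male were untreated (Con), or received 2 mg/kg (MS2) or 5 mg/kg (MS5) of morphine under the skin from P5 together with stress, and all were killed on P9. Stress meant daily isolation from the dam and short exposures to nitrogen and then pure oxygen that stood for apnea, while control littermates stayed in the home cage. The study's methods place the injections under the skin, whereas its abstract gives ip. No group had morphine alone or stress alone, so the effects of drug and stress cannot be told apart in a contrast with controls. The left and right hippocampi of an animal were pooled. RNA of 3 animals per group was hybridized to 9 Affymetrix miR arrays and RNA of 5 per group to 15 Agilent mRNA arrays, and 8 replicate numbers occur on both. The labels do not give litters, so errors and p-values measure the spread between these animals only.

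Some libraries stood apart. All 10 hippocampal neuron markers were detected well above background throughout at least 1 group. Their mean level was 10.08 (log2) on the mRNA array of MS2 replicate 4 against 11.64 to 12.06 on the other arrays, and that of 10 hypothalamus and thalamus markers was 10.31 there against 7.30 to 8.86. The mRNA array labelled MS5 replicate 9, like all samples labelled male, carried Xist at 11.34 against 5.89 to 6.08 on the 14 others, and its 4 Y-linked genes lay below those of all others. These values go against the male label of that array. Median spot signal of the mRNA arrays ran from 58.2 to 154, and the array medians of the miR table from 4.17 to 4.21 (log2).

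A miR is cut from a hairpin RNA, and 1 arm or both persist as a mature strand that pairs with target mRNAs mainly through its seed. The miRs of Htr2c lie on the same strand as the gene, within the region that is transcribed into its precursor RNA. The receptor couples to Gq proteins, its mRNA is edited by ADAR enzymes, and it is known for its very high level in choroid plexus epithelium as well as its presence in neurons.

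The RefSeq sequences of the mature strands (GRCm38.p6, all on the plus strand) are printed to show what the 3 probe sets may detect, with the seed, bases 2 to 8, in capitals. The table named the set of miR-448 without an arm, whereas the study also writes miR-448-5p. Which strand the set detects was not determined here. Both arms are therefore given, at chrX:147158221-147158242 and chrX:147158281-147158302. The arms of miR-764 lie at chrX:147002285-147002303 and chrX:147002324-147002345.
miR-448-5p: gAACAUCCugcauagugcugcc
miR-448-3p: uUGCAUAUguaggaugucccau
miR-764-5p: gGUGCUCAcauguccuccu
miR-764-3p: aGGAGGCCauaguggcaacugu
No pair of these 4 strands shared a seed. Among 1679 mouse mature miR names of the RefSeq table, 0 others carried the seed of miR-448-5p, miR-448-3p or miR-764-5p, and 1 other, miR-7062-5p, carried that of miR-764-3p.

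The hairpins are shown next, with the mature arms in capitals, because the arrays also held probe sets for them. Mir448 lies at chrX:147158210-147158321 and Mir764 at chrX:147002259-147002366.
Mir448: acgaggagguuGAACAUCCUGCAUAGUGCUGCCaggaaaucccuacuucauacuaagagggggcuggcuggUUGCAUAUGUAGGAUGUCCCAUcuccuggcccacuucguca
Mir764: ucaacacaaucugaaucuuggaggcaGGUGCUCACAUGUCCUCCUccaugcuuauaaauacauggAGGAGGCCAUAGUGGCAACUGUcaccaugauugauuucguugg
The longest stretch of one arm whose reverse complement lies in the other was 7 bases in miR-448 and 6 bases in miR-764. Htr2c itself spans chrX:146962464-147197277 on the plus strand, 234814 bases. The hairpin of miR-764 begins 39795 bases after the start of the gene, 16.9% of the way along it, and that of miR-448 begins 195746 bases after it, 83.4% of the way. Between them lie Mir1912, Mir1264, Mir1298 and Mir1911, and Mir3552, which the selection did not name, lies before Mir764, which makes 7 hairpins within the gene.

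In the MS5 group miR-448 was far below the control level on 2 arrays and at the control level on the other, replicate 9. Both arms of miR-764 were lowest of all on the same 2 arrays. On replicate 9 they were only just under the lowest control, and no lower than on MS2 replicate 6. How often 3 arrays fall below 3 others among all probe sets was not counted, and these values chose the miRs. On the MS2 arrays miR-448 lay among or near the controls.
The control arrays held miR-448 at 7.16, 6.76 and 7.61 (log2) in replicates 16, 17 and 18. The MS2 arrays held it at 7.52, 6.92 and 7.52 in replicates 3, 4 and 6. The MS5 arrays held it at 4.81, 4.71 and 7.25 in replicates 12, 14 and 9. Replicates 12 and 14 lay below all 7 other arrays, at 0.193 and 0.181 times the control mean, and replicate 9 lay within the control range at 1.05 times that mean. The means were 7.18 ± 0.42, 7.32 ± 0.35 and 5.59 ± 1.44 (log2, SD, n = 3), and the difference of MS5 from controls was -1.59 with a standard error of 0.59. The MS2 difference from controls was 0.14 and that of MS5 from MS2 was -1.73, with the same standard error, and the arrays overlapped in each of the 3 comparisons. With 1 array left out the MS2 difference from controls ran from -0.06 (without control replicate 17) to 0.36 (without control replicate 18), so its sign was not settled.

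For miR-764-3p the control values were 5.27, 4.80 and 5.40 (log2) in replicates 16, 17 and 18. The MS2 values were 4.88, 4.80 and 4.77 in replicates 3, 4 and 6. The MS5 values were 4.00, 4.39 and 4.78 in replicates 12, 14 and 9. Every MS5 value was under the lowest control, although replicate 9 was only just below control replicate 17, and the MS2 mean lay between the other means. The MS5 and control values chose this miR, so their order is a description only. The difference from controls was -0.77 with a standard error of 0.20 in MS5 and -0.34 in MS2, and MS5 differed from MS2 by -0.43. The MS2 difference was -0.52 when control replicate 17 was left out and -0.22 when control replicate 18 was, and MS5 differed from MS2 by -0.24 without MS5 replicate 12.

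The opposite arm, miR-764-5p, had control values of 5.66, 5.31 and 5.804 (log2) in replicates 16, 17 and 18. Its MS2 values were 5.67, 5.06 and 5.27 in replicates 3, 4 and 6. Its MS5 values were 4.91, 4.76 and 5.27 in replicates 12, 14 and 9. Here too the MS5 arrays did not overlap the controls. These values chose the miR, and the share of all probe sets without overlap was not counted. MS5 replicate 9, the highest of the 3, was only just below control replicate 17 and equal to MS2 replicate 6. MS5 replicates 12 and 14 lay below every other array. The difference from controls was -0.61 with a standard error of 0.19 in MS5 and -0.26 in MS2, and MS5 differed from MS2 by -0.35. The MS2 difference ran from -0.12 without MS2 replicate 4 to -0.43 without MS2 replicate 3, and it was -0.15 when control replicate 18 was dropped and -0.40 when control replicate 17 was. The difference of MS5 from MS2 was -0.19 without MS2 replicate 3.

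**Figure D1:**
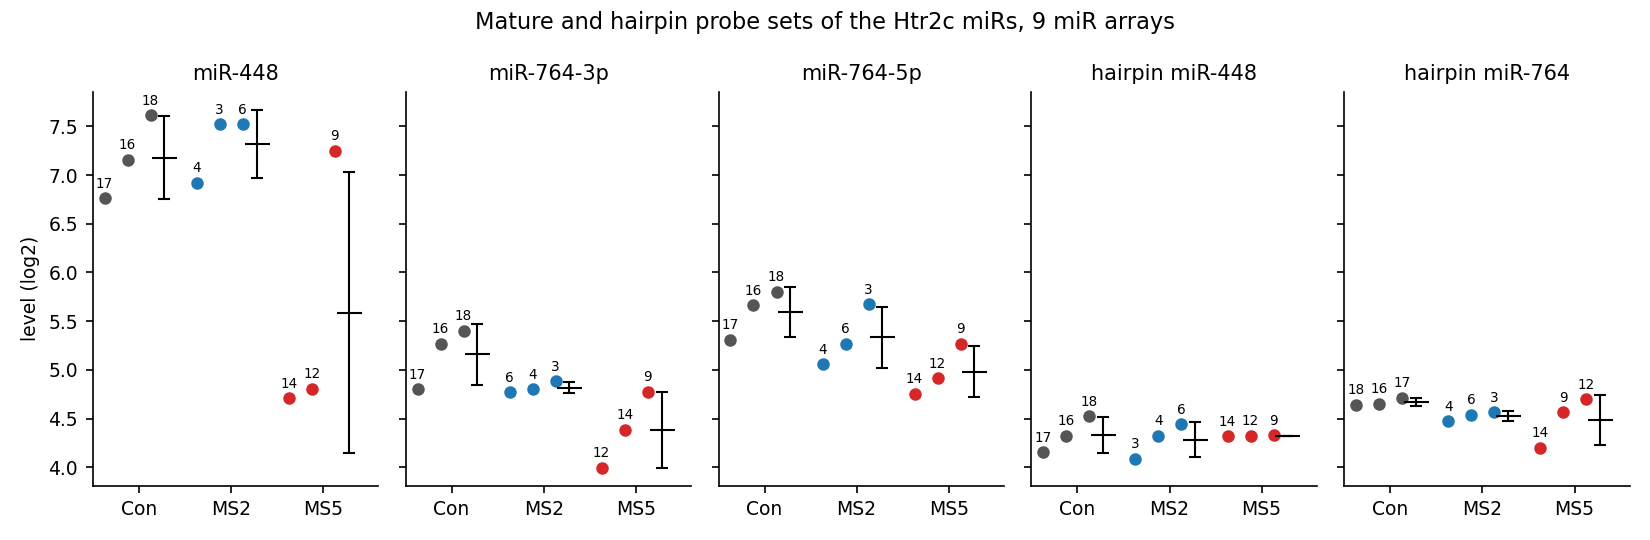
Each panel plots the level (log2) of 1 probe set on the 9 miR arrays, with points ordered by level within a group and marked with the replicate number, and with the mean and SD (n = 3) as a black bar. The MS5 points of miR-448 split into 4.71 and 4.81 against 7.25. Those of both miR-764 arms lie below the controls, replicate 9 only just. The hairpin sets lie between 4.09 and 4.72, and levels are not comparable between panels.

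With the limits on which the miRs had been chosen, a difference over 1.5-fold and an unadjusted p under 0.05, 3 of 3 were lower in MS5 than in controls, 0 of 3 differed between MS2 and controls, and 1 of 3, miR-448, was lower in MS5 than in MS2. Of all 1412 probe sets, 0.992%, 2.97% and 0.425% passed in these comparisons, and nothing about the 3 miRs is read from the contrast since it chose them. The count for MS5 against controls was 0 without MS5 replicate 12. It was 1 without MS5 replicate 14, without control replicate 16 or without control replicate 18, and 3 without MS5 replicate 9 or without control replicate 17. For MS5 against MS2 the count was 0 without MS5 replicate 12 or 14, and 2 without MS5 replicate 9. With 1 array left out, each of the 3 differences from controls was largest in the absence of MS5 replicate 9, at -2.42 for miR-448, -0.97 for miR-764-3p and -0.76 for miR-764-5p. The smallest were -1.15 for miR-448 and -0.50 for miR-764-5p, both when MS5 replicate 14 was left out, and -0.58 for miR-764-3p when MS5 replicate 12 was.

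The hairpin sets did not show this pattern, but a fall in them may not have been measurable. They read 4.09 to 4.72 (log2), close to the array medians of 4.17 to 4.21 over all probe sets. Whether the hairpins were detected was not tested. The hairpin of miR-448 read 4.32, 4.32 and 4.33 (log2) on the MS5 arrays of replicates 12, 14 and 9 against 4.15 to 4.53 on control arrays, a difference of -0.01 with a standard error of 0.11. That of miR-764 read 4.70, 4.20 and 4.57 on the same MS5 arrays against 4.64 to 4.72 in controls, a difference of -0.18 with a standard error of 0.12. Replicate 12, which had the lowest miR-764-3p of all arrays, had a miR-764 hairpin value within the control range. Some values were equal to the last deposited digit between arrays, on 3 arrays for the miR-448 hairpin and on 2 each for the miR-764 hairpin, miR-764-3p and miR-764-5p, and on 0 for miR-448.

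Across the 9 arrays the level of miR-448 ranged over 2.90 (log2), and 2 of the 601 mature sets had a wider range. The range was 1.41 for miR-764-3p, with 32 wider, and 1.05 for miR-764-5p, with 97 wider, against a median of 0.56 over all mature sets. These ranges include the MS5 and control values on which the miRs were chosen. A wide range follows in part from that choice, and the ranks are a description only. The 2 arms of miR-764 followed each other (Pearson r = 0.87 over 9 arrays that share their labelling and normalization), and miR-448 followed miR-764-3p at r = 0.82 and miR-764-5p at r = 0.81. Over the 7 arrays other than MS5 replicates 12 and 14 these values were 0.82, 0.36 and 0.59, so much of the likeness of miR-448 to the miR-764 arms rested on those 2 arrays.

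The mature sets most like miR-448 over the 9 arrays, of 598 others, were miR-34b-5p (r = 0.97), miR-204 (r = 0.96), miR-34b-3p (r = 0.94), miR-34c (r = 0.93) and miR-449a (r = 0.89). The miR-34b, miR-34c and miR-449 genes are known from cells with motile cilia, and miR-204 from choroid plexus and pigment epithelium. Each of the 5 stood lower on MS5 replicates 12 and 14 than on any control array, and within or next to the control range on MS5 replicate 9. For miR-34c the values were 8.45, 8.50 and 10.75 (log2) in replicates 12, 14 and 9, against 9.84 to 11.01 in controls. For miR-204 they were 5.23, 5.37 and 7.31 against 6.99 to 7.53. Over the 7 arrays other than replicates 12 and 14, r with miR-448 was 0.98 for miR-34b-5p, 0.78 for miR-204 and 0.57 for miR-34c. The arms of the most alike pair are printed to show that their seeds, in capitals, are not those of miR-448 (GRCm38.p6, minus strand, chr9:51103610-51103632 and chr9:51103574-51103595).
miR-34b-5p: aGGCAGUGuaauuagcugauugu
miR-34b-3p: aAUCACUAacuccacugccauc

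**Figure D2:**
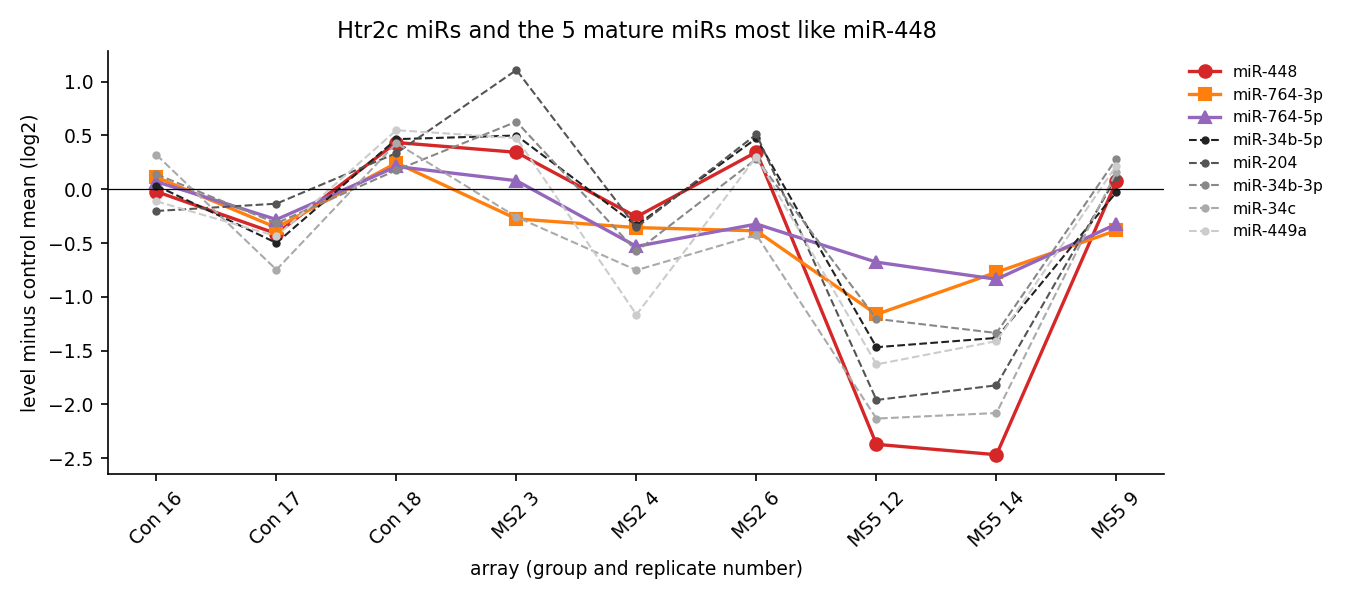
The level minus the control mean (log2) is plotted for each of the 9 miR arrays, with solid lines for the 3 miRs of Htr2c and dashed lines for the 5 mature miRs most like miR-448; the lines join arrays that have no order. All 8 lie lowest on MS5 replicates 12 and 14, where miR-448 is at -2.37 and -2.47, and MS5 replicate 9 is near 0 for miR-448 (0.07).

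Htr2c mRNA, measured on the other platform, was lower in MS5 than in controls at each of its 3 probes, but by less than 1.5-fold and short of the threshold after adjustment. The probe with the highest level, A_55_P1977503 (chrX:143631655-143631714 in mm9, as the array file gives it), is taken for the gene. Its control values were 12.25, 12.76, 12.95, 12.34 and 12.61 (log2) in replicates 15 to 19. The MS2 values were 12.54, 12.47, 12.95, 12.44 and 12.38 in replicates 1, 3, 4, 5 and 7. The MS5 values were 12.50, 12.04, 12.49, 12.44 and 12.09 in replicates 8, 9, 12, 13 and 14. MS5 replicates 9 and 14 lay below every control, and the other 3 lay inside the control range.

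The MS5 difference of Htr2c from controls was -0.27 with a standard error of 0.15 (limma, adjusted p = 1.00; two-sided exact permutation p = 0.135). The smallest p that 5 arrays against 5 allow is 0.00794. The MS2 difference was -0.02 with the same standard error (limma, adjusted p = 0.996), and MS5 differed from MS2 by -0.25 (limma, adjusted p = 1.00). The MS5 difference from controls was -0.20 without MS5 replicate 9 and -0.18 without control replicate 17. That of MS5 from MS2 was -0.15 without MS2 replicate 4. Within the first slide, which held 2 MS5 and 3 control arrays, the MS5 difference from controls was -0.05. Within the second, which held 3 and 2, it was -0.48.

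The second Htr2c probe, A_55_P2068461 (chrX:143604149-143604208 in mm9), had the largest difference of the 3. It ran from 8.08 to 8.46 (log2, median 8.13) in controls and from 7.34 to 8.13 (median 7.89) in MS5. Below every control lay 3 of 5 MS5 arrays and 2 of 5 MS2 arrays, and the share over all probes was not counted. MS5 differed from controls by -0.41 with a standard error of 0.14 (limma, unadjusted p = 0.00880, adjusted p = 1.00; exact permutation p = 0.0476), and by -0.29 without MS5 replicate 9. The third, A_55_P2158921 (chrX:143629079-143629138 in mm9), differed by -0.13 with a standard error of 0.08 (limma, adjusted p = 1.00). The 3 probes varied together over the 15 arrays, with r between 0.79 and 0.84, and all 3 were well above background on every array. The exon that each probe lies in was not determined here.

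**Figure D3:**
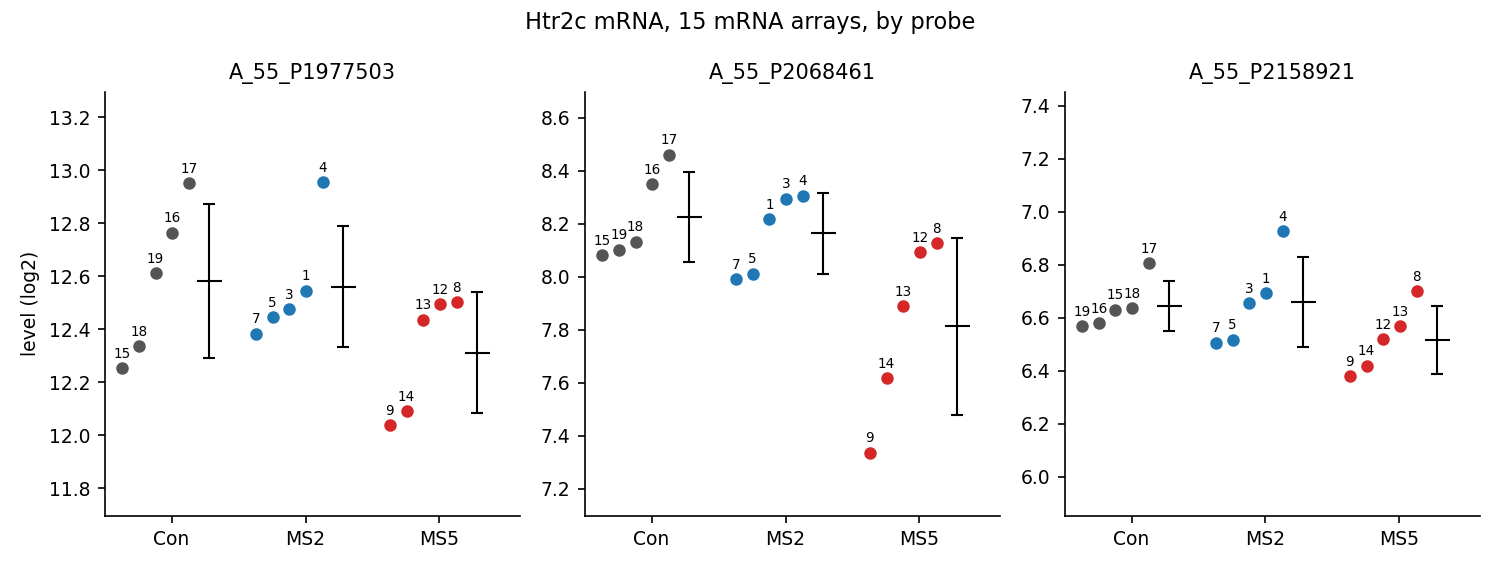
The 3 panels plot the level (log2) of the 3 Htr2c probes on the 15 mRNA arrays, each on an axis of 1.6 (log2), with replicate numbers, and with the mean and SD (n = 5) as a black bar. MS5 replicates 9 and 14 are the 2 lowest arrays at each probe. In the panels from left to right 2, 3 and 3 of 5 MS5 arrays lie below every control, and the other MS5 arrays lie within the control range. Of the 5 MS2 arrays 0, 2 and 2 lie below every control.

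None of the 14 serotonin receptor genes, Htr2c included, passed these limits in any of the 3 comparisons, where 0.228% (MS5 against controls), 0.0233% (MS2 against controls) and 0.129% (MS5 against MS2) of the 55681 mRNA probes did. On the 1 probe taken per gene, 0 of the 14 had an unadjusted p under 0.05 in limma in each comparison. Htr2c probe A_55_P2068461, which was not the one taken, had 0.00880 in MS5 against controls and 0.0215 in MS5 against MS2 (limma, unadjusted). Of the 14, 11 were well above background throughout at least 1 group, and Htr1b, Htr3b and Htr4 were not, with Htr3b above it on 0 arrays, so a difference in these could not be measured well. The median difference of the family in MS5 from controls was 0.03 (log2), from -0.28 for Htr5b to 0.19 for Htr1d, and the median of all probes was 0.00033. Htr2a, a receptor that also couples to Gq, differed by 0.08 with a standard error of 0.08. Htr7, a receptor that couples to Gs, differed by 0.08 with a standard error of 0.15. At Htr1f and Htr3a, MS2 replicate 4 stood alone below the other MS2 arrays.

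Genes that act with the receptor were also short of the limits: 0 of 13, among them Gnaq and Gna11, which encode its G proteins, the phospholipase C gene Plcb1, and the editing enzyme genes Adar and Adarb1. Gnaq differed by -0.09 in MS5 from controls with a standard error of 0.08, Plcb1 by 0.27 with 0.19, and Adarb1 by 0.28 with 0.19. Of 9 genes that process or carry miRs 0 passed. Drosha, which cuts the hairpin from its precursor, differed by 0.05 with a standard error of 0.05, and Dicer1, which cuts the hairpin, by 0.07 with 0.08. The 6 nearest measured protein-coding genes on the X chromosome, Rtl4, Lhfpl1 and Amot before Htr2c and Il13ra2, Lrch2 and Luzp4 after it, gave 0 as well. The nearest, Il13ra2, begins 186201 bases after the end of Htr2c. Of these 6 genes, 5 were well above background throughout at least 1 group. Over all mRNA probes 0.228% (MS5 against controls), 0.0233% (MS2 against controls) and 0.129% (MS5 against MS2) passed, so 0 is expected in lists this short. Counts of 0 here and among the serotonin receptors are therefore no result about these genes.

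The mRNAs most like Htr2c over the 15 arrays, of 21648 probes compared, were Pgcp (r = 0.96), Gstt3 (r = 0.93), A2m (r = 0.92), Ace (r = 0.90) and Heph (r = 0.90). Their MS5 differences from controls ran from -0.43 for Heph to -0.19 for Pgcp (log2). Otx2, a transcription factor of choroid plexus, came at rank 7 with r = 0.90 and differed by -1.26. The others down to rank 10, Pex11c, Efcab1, Crb3 and Tmem59, differed by -0.21, -0.25, -0.27 and -0.07. Among these 10 genes only Otx2 was in the list of choroid plexus markers.

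Markers of choroid plexus, a tissue beside the hippocampus that is rich in Htr2c, were lower on some of the same mRNA arrays. Of 22 genes, all of them detected well above background throughout at least 1 group, 19 were past the limits and lower in MS5 than in controls, 0 in MS2, and 14 were lower in MS5 than in MS2, against 0.228%, 0.0233% and 0.129% of all probes past the limits in either direction. None passed an adjusted p under 0.05 in limma. The study had already reported several of these genes as lower on the same arrays, among them Aqp1, Calml4, Cldn2, Folr1, Kl and Otx2. The count is therefore a description and no independent evidence. The median difference in MS5 from controls was -1.21 (log2), with Kl at -1.11, Aqp1 at -1.48, Kcne2 at -1.72 and Steap1 at -1.49. The mean level of the list ran from 10.80 to 11.69 in controls, 10.81 to 11.42 in MS2 and 8.65 to 11.18 in MS5. The MS5 count was 10 without MS5 replicate 9, 11 without MS5 replicate 14 and 12 without control replicate 16. For MS5 against MS2 it was 1 without MS5 replicate 9, 2 without MS5 replicate 14, 3 without MS2 replicate 1 or 3, and 19 without MS5 replicate 12. Markers of hypothalamus and thalamus, which also lie beside the hippocampus, were higher on some MS5 and some MS2 arrays. Of 10 genes 3 passed the limits and were higher in MS5 than in controls, the hormone precursor genes Avp by 2.53 (log2), Oxt by 1.79 and Trh by 1.89, with an adjusted p of 1.00 each in limma. The mean level of that list was 8.86, 7.54, 8.55, 7.94 and 8.74 in MS5 replicates 8, 9, 12, 13 and 14 against 7.30 to 7.84 in controls. It ran from 7.39 to 10.31 in MS2, with 10.31 on replicate 4. In MS2 against controls 0 of the 10 genes passed, but all 10 differed upward, with a median of 0.54 (log2). In MS5 against controls 8 differed upward, with a median of 0.28. The count of 3 rests in part on Avp and Trh, which the study had already reported as higher. In tissue RNA, fewer cells of a type and less RNA per cell cannot be told apart. The part of either neighbouring tissue in the levels of Htr2c and its miRs was not tested.

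The 8 replicate numbers found on both platforms did not line up in the same order. MS5 replicate 14 was low on both, with miR-448 at 4.71, Htr2c at 12.09, the choroid plexus list at 8.65 and Ttr, the gene of the choroid plexus carrier transthyretin, at 12.84 (log2). MS5 replicate 12 had miR-448 at 4.81, but Htr2c at 12.49, the list at 11.18 and Ttr at 17.92. MS5 replicate 9 had miR-448 at 7.25, with Htr2c at 12.04, the list at 9.42 and Ttr at 15.93. So on the mRNA arrays 9 and 14 were the low ones, and on the miR arrays 12 and 14. The control and MS2 numbers held miR-448 between 6.76 and 7.61 with the list between 10.81 and 11.69. Whether an equal number stands for the same animal on both platforms was not tested, and since the miR-448 arrays fall into 2 clusters no pooled correlation with Htr2c is given. The mRNA array of MS5 replicate 9 is also the array whose Xist and Y-linked levels went against its male label.

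**Figure D4:**
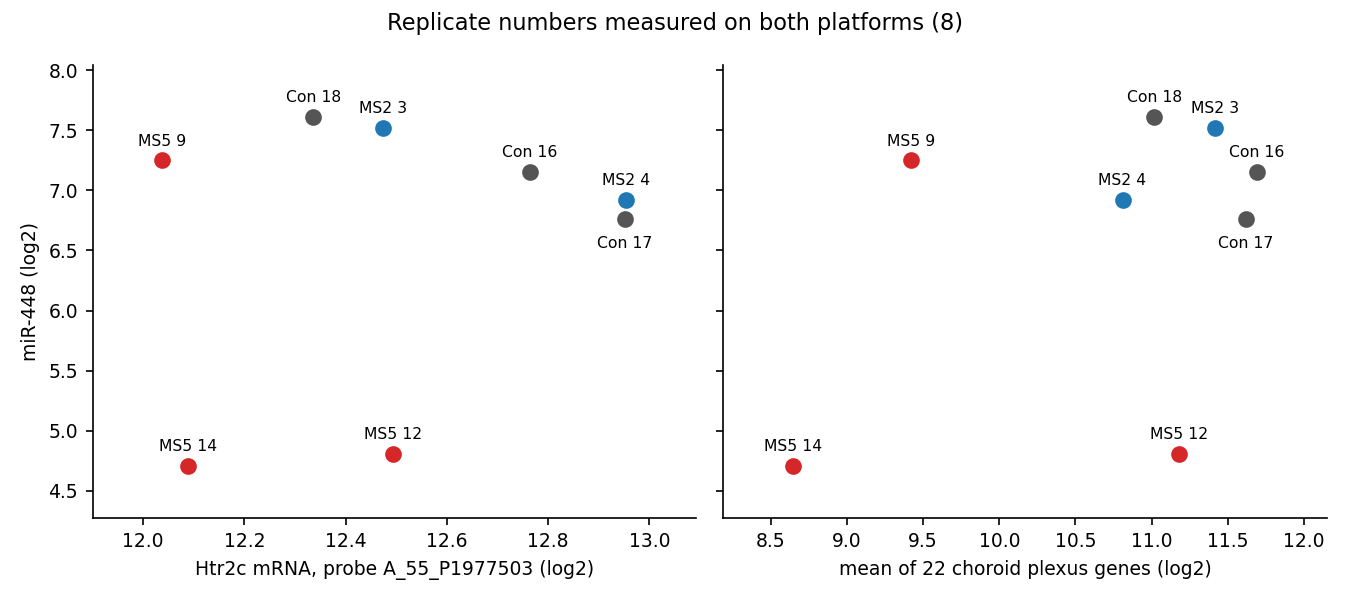
For the 8 replicate numbers on both platforms, miR-448 (log2) is plotted against Htr2c mRNA (log2, left) and against the mean of 22 choroid plexus genes (log2, right), 1 point per number. MS5 14 is low on both axes of the right panel, MS5 12 is low for miR-448 only (4.81 against 11.18) and MS5 9 for the mRNA list only (7.25 against 9.42).

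The study reported miR-448 as lower on these miR arrays and by RT-PCR, which took in further animals and whose values were not used here. It did not list miR-764 among its altered miRs. It paired 5 mRNAs with miR-448 as predicted targets from the same mRNA arrays, so the differences of these mRNAs are no independent evidence. In MS5 against controls Acox2, an enzyme of bile acid and fatty acid oxidation, differed by -0.93 with a standard error of 0.32. Kl differed by -1.11 with 0.35, Otx2 by -1.26 with 0.53, and Prdm16, a transcription regulator, by -0.60 with 0.24. Sema3a, an axon guidance cue, differed by 0.60 with 0.27. All 5 passed the limits and had an adjusted p of 1.00 in limma, 4 were lower and 1 higher, and Kl and Otx2 are also in the choroid plexus list.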

How the data were processed

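Hippocampal miRs were measured on 9 and mRNAs on 15 arrays, and all were used. The authors deposited miR values as log2, after background correction, probe-level quantile normalization and median polish in the array maker's software, and mRNA scanner files as spot intensity, beside a table of log2 values. From the deposited intensity, mean signal was adjusted for local background (normexp, offset 50), quantile normalized and log2 transformed, 3671 of 62976 spots were dropped as controls and spots averaged to 55681 probes. These values differed from the authors' log2 table by more than 0.01 at 432 probes, and at 0 Htr2c probes.

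R 4.3.3 and limma 3.58.1 fitted 3 groups at once for each platform, with Benjamini-Hochberg adjustment over all features, and the steps were tested on simulated data. The limits were 1.5-fold with an unadjusted p under 0.05. One probe stood for a gene, A_51 or A_52 names first, then the highest mean level. miR sequences are from RefSeq (GRCm38.p6), matched by name for 3 of 3 miRs. The miRs, the gene lists and the tests were chosen with earlier results of these data known.

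Named genes were the miRs with their hairpins, all Htr2c probes, serotonin receptors, 6 X neighbours, list genes past the limits, the 5 features most like miR-448 and Htr2c, and the 5 paired mRNAs. Others (such as Gnaq, Plcb1, Drosha and Ttr) were chosen after their values were seen. Alternatives were normexp without an offset, processed scanner signal at the 75th percentile, the authors' values, array weights, slide as a block, a background filter, only the groups compared, all probes of a gene, median centring and quantile normalization of the miRs, and leaving out each array.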

Additional observations from a re-analysis of the deposited data

Results flagged for a closer look

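In 66 groups of 5 mRNA arrays (Htr2c probes, serotonin receptors and X neighbours), 7 had 1 array whose gap to the nearest other exceeded Dixon's limit, which chance does in about 1 of 20. At Htr2c probe A_55_P1977503, MS2 replicate 4 stood at 12.95 (log2) against 12.38 to 12.54 on the other MS2 arrays. At Htr2c probe A_55_P2158921, control replicate 17 stood at 6.80 against 6.57 to 6.64. MS2 replicate 4, the array low in hippocampal neuron markers, was also low at Htr1f, with 6.95 against 7.90 to 8.00, and at Htr3a, with 6.78 against 8.09 to 8.37. Control replicate 19 stood at 6.45 at Htr1b against 6.04 to 6.14. MS2 replicate 5 stood at 7.27 at Htr6 against 6.81 to 6.87, and control replicate 15 at 11.96 at Amot against 12.16 to 12.21.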

How the results depend on the processing

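The differences of the 3 miRs from controls moved by less than the spread between replicates under median centring, quantile normalization on top and array weights, and the counts past the limits were the same in these. Leaving out single arrays moved the count of miRs in MS5 against controls between 0 and 3, and in MS5 against MS2 between 0 and 2. For choroid plexus genes it gave 10 to 21 in MS5 against controls and 1 to 19 in MS5 against MS2, where slide as a block gave 9 and only the 2 groups compared gave 6. The MS2 difference of Htr2c ran from -0.121 to 0.069 with single arrays left out and changed sign. At probe A_55_P2158921 of Htr2c it ran from -0.052 to 0.055, and was -0.024 with array weights. No serotonin receptor passed under any alternative. The adjusted p of the Htr2c probe taken for the gene lay between 0.696 and 1.00 in MS5 against controls (limma). That of probe A_55_P2068461 went down to 0.464 with array weights (limma). The causes were not tested. No paired analysis was possible because the groups compared share 0 replicate numbers. Detection calls of the miR arrays were not used here, and 3 arrays per group limit the precision.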

Other observations

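The mature miR sets most like miR-764-3p over the 9 arrays were miR-34c (r = 0.91), miR-669n (r = 0.84), miR-743b-5p (r = 0.83), miR-669b and miR-455 (both r = 0.82). Without MS5 replicates 12 and 14 these values were 0.76, 0.66, 0.32, 0.66 and 0.80 over 7 arrays. Of these miR-455, which lies within a fibrillar collagen gene, stood at 8.03, 7.86 and 8.38 (log2) on MS5 replicates 12, 14 and 9 against 8.50 to 8.95 on control arrays, so that, unlike miR-448 and miR-34c, it was below all controls on replicate 9 too. For miR-764-5p the most alike sets were miR-34c (r = 0.87), miR-449a (r = 0.85), miR-34b-3p (r = 0.85), miR-34b-5p (r = 0.84) and miR-204 (r = 0.79). Without MS5 replicates 12 and 14 they were 0.72, 0.69, 0.61, 0.61 and 0.46 over 7 arrays.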
